A study of Mus musculus with 4 samples.

Results

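Dentate granule neurons were examined in 4 single-nucleus RNA libraries of mouse hippocampus, 1 library for each of 4 genotypes. A nucleus was taken as a granule neuron when at least 500 genes were detected, when at least 3 of 8 markers (Prox1, C1ql2, Plk5, Dsp, Trpc6, Glis3, Il1r1 and Npnt) had a unique molecular identifier (UMI, a counted RNA molecule) with Prox1 among them, and when Gad1 and Gad2 together had at most 1 UMI. The rule took 8497 of the 59750 nuclei with at least 500 genes. The genotypes, as the labels name them, were wild type (WT), total or global MAGL-KO (tKO), astrocyte specific MAGL-KO (aKO) and neuron specific MAGL-KO (nKO). MAGL is monoacylglycerol lipase, encoded by Mgll. The promoter or Cre driver behind the cell-specific knockouts, the strain, the age and the number of animals per library are not stated in the labels. All 3 knockouts are compared with the same WT library. With 1 library per genotype no difference between genotypes has a replicate check, and the intervals below are 95% intervals that cover counting error only.

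Granule neurons are the principal cells of the dentate gyrus. They receive input from the entorhinal cortex and send mossy fibres to CA3 pyramidal neurons and to cells of the hilus. MAGL degrades 2-arachidonoylglycerol, an endocannabinoid that diacylglycerol lipases make in postsynaptic cells and that acts on the presynaptic receptor CB1. Granule neurons are known for Prox1, a homeobox factor that maintains their identity, and for calbindin, a calcium buffer encoded by Calb1.

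Granule nuclei numbered 1604 in WT, 3859 in tKO, 1687 in aKO and 1347 in nKO. They made up 17.2% of WT nuclei (Clopper-Pearson interval 16.5 to 18.02), 12.5% of tKO nuclei (12.1 to 12.9), 15.8% of aKO nuclei (15.1 to 16.5) and 15.2% of nKO nuclei (14.5 to 15.98). Their median depth was 8525 UMIs in WT, 5512 in tKO, 6505 in aKO and 7721 in nKO, and the rule reads depth. Nuclei with at least 3000 UMIs were then thinned to 3000 UMIs, and those below were left out. This kept 8318 of 9304 nuclei in WT, 24746 of 30929 in tKO, 10120 of 10664 in aKO and 8100 of 8853 in nKO. The part left out was largest in tKO. Among the kept nuclei the shares were 11.1%, 9.07%, 10.1% and 9.75% in that order, so the order of the libraries was the same. Without nuclei holding 2 or more UMIs of glial or vascular markers the shares were 6.90%, 8.02%, 7.12% and 6.42%, and tKO was then the highest library. That setting kept 329, 1530, 487 and 349 granule nuclei. Its cut was a fixed number of UMIs, not scaled to depth, and astrocyte markers were not part of it. The part of depth in the changed order was not tested. Of the granule barcodes, 31 occurred in more than 1 library. WT, aKO and nKO held granule nuclei of both sexes by Xist and Y-linked transcripts, with 747 female and 589 male, 747 and 482, and 541 and 528 nuclei. In tKO 0 granule nuclei were classed female and 2650 male.

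The tKO library stood apart in a second way. Scrublet, which scores each barcode against simulated pairs of nuclei, called 1152 of its granule nuclei (29.9%) doublets, against 57 in WT (3.55%), 171 in aKO (10.1%) and 40 in nKO (2.97%). Its expected rate was set from the number of barcodes, 24.7% for tKO and 7.08% to 8.53% for the others. Among all nuclei it called 26.1% in tKO, 3.94% in WT, 5.80% in aKO and 1.74% in nKO. In tKO, granule nuclei that were called held a median of 8522 UMIs and a summed level of 170 CPM of CA pyramidal markers (CPM, UMIs scaled to the same library total), and those not called held 4884 UMIs and 24.7 CPM. The rule has no doublet step, so called nuclei were kept, and the main results are given with and without them.

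The label was checked against 9 granule markers that the rule did not use (Calb1, Tdo2, Synpr, C1ql3, Dock10, Stxbp6, Rfx3, Slc4a4 and Gabrd), by setting granule nuclei beside other nuclei with at least 2 Slc17a7 UMIs, no Prox1 and at most 1 Gad1 or Gad2 UMI. Slc17a7 encodes the vesicular glutamate transporter of hippocampal excitatory neurons. Each of the 9 markers was higher in granule nuclei in all 4 libraries. Dock10, a guanine nucleotide exchange factor, was at 1174 CPM in WT granule nuclei, 1051 in tKO, 1047 in aKO and 1149 in nKO, against 62.6, 95.9, 60.0 and 57.9 CPM in the other Slc17a7 nuclei. Tdo2, which encodes tryptophan dioxygenase, was at 18.4, 11.5, 9.91 and 12.3 CPM against 0.421, 0.593, 0.566 and 0.511. Gabrd, the delta subunit of extrasynaptic GABA-A receptors, had the smallest ratio in WT, tKO and nKO (in aKO it was Calb1), at 46.4, 55.4, 50.4 and 56.0 CPM against 14.6, 16.4, 10.3 and 14.0. These nuclei were chosen by a rule on their RNA, and these differences are a description with no test.

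**Figure D1:**
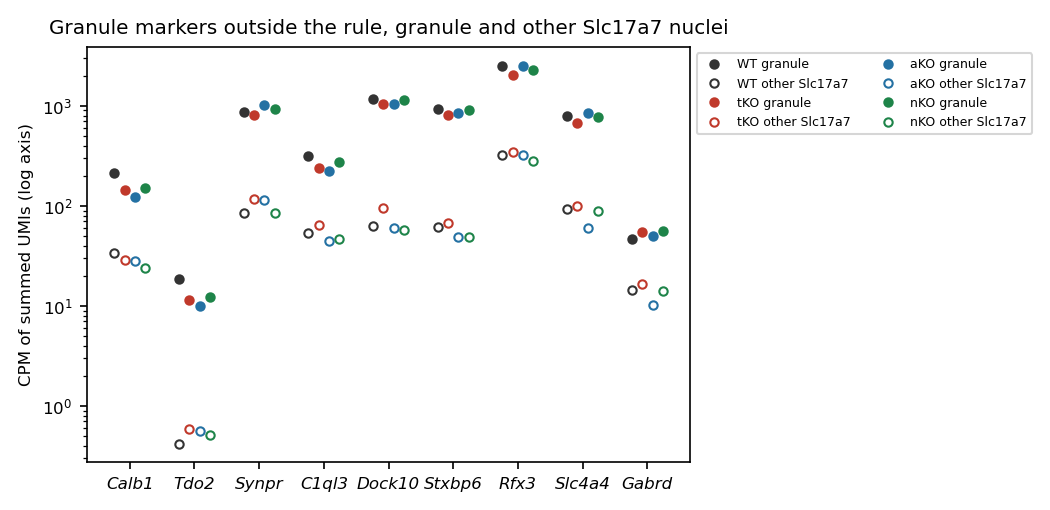
CPM of summed UMIs (log axis) of 9 granule markers outside the rule, in granule nuclei (filled) and other Slc17a7 nuclei (open) of the 4 libraries. Every filled point lies above the open point of the same library.

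At the edge of the rule, nuclei just inside and just outside were set side by side. In WT, the 183 members with exactly 3 markers held 2332 CPM of Rfx3, a regulatory factor, and 35.4 CPM of 3 inhibitory genes. The 72 WT nuclei with 2 markers, outside the rule, held 985 and 2125 CPM. In aKO the gap was smaller, 2416 and 61.2 CPM inside against 1761 and 463 CPM outside. Other nuclei outside the rule held levels nearer those of members. In WT, 285 nuclei with at least 3 markers but no Prox1 held 1939 CPM of Rfx3, and 97 with Prox1 but 2 Gad1 or Gad2 UMIs held 2403 CPM. Members with exactly 3 markers in tKO held 269 CPM of the inhibitory genes, above the 35.4 CPM in WT, 61.2 CPM in aKO and 24.1 CPM in nKO.

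Among genes outside the rule, those with the highest ratio to other Slc17a7 nuclei were described next. Of 13633 genes with at least 100 UMIs in granule nuclei, 4.91% were at least 2-fold higher than in other Slc17a7 nuclei in all 4 libraries and 4.82% at least 2-fold lower. The lowest ratio among the 20 leading genes in any library was 10.96, for Dock10. They included Adarb2, a member of the RNA-editing adenosine deaminase family, at 1954, 1783, 1375 and 1796 CPM, and Pdyn, the precursor of dynorphin peptides that mossy fibres release, at 8.68, 8.29, 8.16 and 7.90 CPM. They also included 3 genes named as olfactory receptors that lie near each other on chromosome 7 of GRCm38, Olfr535 (chr7:140484216-140497104), Olfr538 (chr7:140567886-140575793) and Olfr46 (chr7:140601269-140617678). Olfr46 was at 27.8, 25.1, 21.8 and 27.2 CPM. Prox1os led the list at 68.5, 51.4, 50.9 and 55.6 CPM. It lies antisense to Prox1, a rule gene. Whether the counting used strand is not stated in the labels, and the part of Prox1 reads in the level of Prox1os was not tested.

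Promoters were searched for CAGATG, an E-box that NEUROD factors bind, or its reverse complement CATCTG, in the 250 bases before each gene start in RefSeq on GRCm38. The motif was in a promoter of 2 of the 12 leading genes that had one in the table (16.7%), against 16.3% of 27025 genes. Dock10 is shown because it is a leading gene, a granule marker and a holder of the motif, which is in capitals. The stretches lie before 2 of its starts, on the minus strand at chr1:80758554-80758803 and chr1:80665353-80665602.
Dock10 upstream start: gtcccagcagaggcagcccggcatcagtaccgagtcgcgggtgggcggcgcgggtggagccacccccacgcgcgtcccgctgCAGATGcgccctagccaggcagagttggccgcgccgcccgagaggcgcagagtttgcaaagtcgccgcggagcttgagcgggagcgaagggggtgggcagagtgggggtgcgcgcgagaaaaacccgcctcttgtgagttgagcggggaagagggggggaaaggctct
Dock10 downstream start: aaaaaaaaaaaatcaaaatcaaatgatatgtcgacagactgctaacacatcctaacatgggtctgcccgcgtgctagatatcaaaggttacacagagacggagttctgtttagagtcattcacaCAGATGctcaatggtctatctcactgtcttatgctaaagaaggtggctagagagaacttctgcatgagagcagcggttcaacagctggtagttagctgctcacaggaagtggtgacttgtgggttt
A match is a description of these letters and not a binding site.

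The targeted gene was read first in the comparison of genotypes. Mgll was at 123 CPM in WT granule nuclei (exact Poisson interval 117 to 129), 97.3 in tKO (93.5 to 101), 140 in aKO (134 to 147) and 130 in nKO (124 to 137). The log2 ratio to WT was -0.34 in tKO (-0.43 to -0.25), 0.19 in aKO (0.10 to 0.28) and 0.08 in nKO (-0.02 to 0.18). tKO was the lowest library and nKO did not differ from WT beyond counting error. The labels do not say which part of Mgll was deleted. UMIs from outside a deleted part would remain, so the level does not check the labels. In nuclei thinned to 3000 UMIs, 31.2%, 25.7%, 33.5% and 33.1% of granule nuclei held an Mgll UMI in WT, tKO, aKO and nKO.

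Genes were then compared between each knockout and WT by the log2 ratio of CPM with a pseudocount of 1 count, and a gene was called where the ratio passed 2-fold. In tKO 341 genes were higher (2.50% of 13633) and 170 lower (1.25%), together 3.75%. In aKO 165 were higher (1.21%) and 172 lower (1.26%), together 2.47%. In nKO 69 were higher (0.506%) and 203 lower (1.49%), together 2.00%. Without the nuclei called by Scrublet, 12818 genes reached 100 UMIs. Then 31 genes were higher (0.242%) and 213 lower (1.66%) in tKO, together 1.90%. In aKO 80 were higher (0.624%) and 94 lower (0.733%), together 1.36%. In nKO 74 were higher (0.577%) and 92 lower (0.718%), together 1.30%. The gene sets of these counts differ, since fewer genes reach 100 UMIs without the called nuclei. Of the genes past 2-fold in all granule nuclei, whatever their UMIs in the smaller set, 64 of the 341 higher and 120 of the 170 lower in tKO were also past 2-fold without called nuclei. In aKO it was 106 of 165 and 123 of 172, and in nKO 66 of 69 and 165 of 203. Between female and male nuclei inside 1 library, where the genotype is the same, 2.40% of 13608 genes passed 2-fold in WT (1.74% higher in female, 0.654% lower), 3.14% in aKO (2.05% and 1.09%) and 3.58% in nKO (2.73% and 0.845%). Male nuclei of tKO, aKO and nKO against male WT nuclei, over the same genes, gave 6.30%, 4.86% and 3.92%. Over the 12040 genes that reached 100 UMIs in male nuclei alone, 566, 365 and 280 passed 2-fold, and without called nuclei 125, 147 and 121 of 10907, with tKO no longer the highest. The female and male sets hold fewer nuclei than the libraries they come from.

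**Figure D2:**
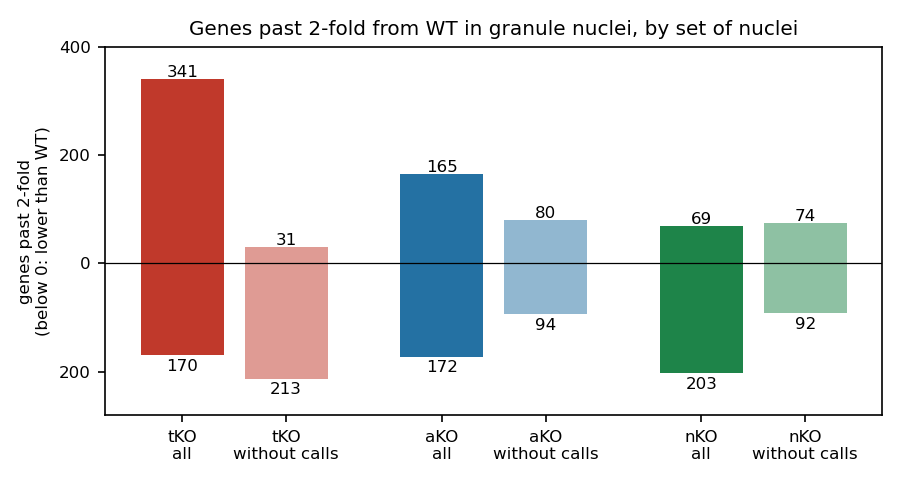
Number of genes past 2-fold from WT in granule nuclei of each knockout, higher above 0 and lower below 0, in all granule nuclei (dark bars) and without nuclei called by Scrublet (light bars). The higher calls of tKO number 341 of 13633 genes in the first set and 31 of 12818 in the second, and 64 of the 341 are past 2-fold in both.

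Many of the higher calls were genes that granule nuclei held at lower levels than other Slc17a7 nuclei. Of the 341 genes higher in tKO, 247 (72.4%) were at most 0.5 of the level of other Slc17a7 nuclei in all 4 libraries, against 4.82% of all genes. In aKO it was 122 of 165 and in nKO 34 of 69. Past 2-fold in all 3 knockouts were 34 genes higher (0.249%) and 5 lower (0.0367%), and 14 of the 34 and 4 of the 5 were also past 2-fold without the called nuclei. Without them 14 genes in all were higher in each knockout (0.109%) and 19 lower (0.148%). No gene of the 34 was as high in granule nuclei as in the remaining nuclei. Sv2b, a synaptic vesicle protein, was at 12.8 CPM in WT, 70.2 in tKO, 53.7 in aKO and 26.7 in nKO. Its level in granule nuclei was 0.0319, 0.168, 0.121 and 0.0670 times that in other Slc17a7 nuclei. Without called nuclei Sv2b was at 4.07, 6.53, 16.8 and 18.6 CPM. Sv2b was chosen after its values were seen. The markers of CA pyramidal neurons summed to 43.1, 88.4, 67.6 and 41.7 CPM in granule nuclei of WT, tKO, aKO and nKO, with 0 of the 8 at zero in each library, and those of inhibitory neurons to 91.3, 217, 97.0 and 69.2 CPM. In nuclei not called by Scrublet the sums were 28.5, 24.7, 32.6 and 32.1 CPM and 72.5, 90.5, 92.0 and 66.5 CPM. Without nuclei holding 2 or more UMIs of glial or vascular markers the higher calls in tKO numbered 157. Without nuclei holding pyramidal UMIs, 156 genes were higher and 117 lower in tKO, 64 and 130 in aKO, and 26 and 135 in nKO. A further count took 5565 genes with names that were at least as high in granule as in all other nuclei, without sex and mitochondrial genes. Of these, 5 were higher and 29 lower in tKO, where 2.50% and 1.25% of all 13633 genes were. In aKO it was 6 and 34, where 1.21% and 1.26% were, and in nKO 10 and 23, where 0.506% and 1.49% were. Each count was a smaller share of the 5565 genes than the share over all genes.

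Of the 20 leading granule genes, Ogn was past 2-fold in all 3 knockouts. It encodes osteoglycin, a small leucine-rich proteoglycan, and lies at chr13:49608046-49624501. Ogn was at 21.6 CPM in WT (19.3 to 24.1), 9.26 in tKO (8.12 to 10.5), 9.18 in aKO (7.65 to 10.9) and 9.74 in nKO (8.05 to 11.7). WT was the high library and the 3 knockouts lay within each other's intervals. The log2 ratios were -1.22 in tKO (-1.47 to -0.98), -1.23 in aKO (-1.54 to -0.94) and -1.14 in nKO (-1.47 to -0.84), and without called nuclei -1.08, -1.09 and -1.17. In the sexes Ogn was at 18.6 CPM in female and 28.0 in male WT nuclei, and between 7.28 and 12.5 CPM in the 5 knockout sets of 1 sex. Over the 12 settings tried the ratio ran from -1.55 to -0.96 in tKO, from -1.39 to -0.95 in aKO and from -1.28 to -0.83 in nKO, so in some settings it was short of 2-fold. The other 4 genes lower in all 3 were C1qa and C1qb, complement genes of microglia, and the unnamed models Gm19667 and Gm50209. C1qa was at 4.54, 1.84, 0.875 and 0.252 CPM. Directions of these 4 genes turned in several settings, some of which follow. In male nuclei the log2 ratio was 0.19 for C1qa in tKO, and in aKO 0.075 for C1qb and 0.17 for Gm50209. In aKO it was 0.26 for Gm19667 after thinning, and 0.30 for C1qa and 0.71 for C1qb without glial or vascular nuclei. The microglial marker list summed to 47.7, 34.5, 37.5 and 34.5 CPM in granule nuclei.

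The 12 genes listed as granule effectors are markers of mature granule neurons. None was past 2-fold in any knockout, where 3.75%, 2.47% and 2.00% of all genes were, so a count of 0 in a list this short is near the background. The median log2 ratio was -0.20 in tKO, -0.14 in aKO and -0.07 in nKO, where all genes kept had -0.04, -0.05 and -0.04. Without called nuclei the tKO median was 0.02. Calb1 was at 213 CPM in WT (206 to 221), 143 in tKO (138 to 148), 123 in aKO (117 to 129) and 152 in nKO (145 to 159). Its log2 ratio was -0.58, -0.80 and -0.49, and without called nuclei -0.37, -0.71 and -0.50. WT female nuclei held 211 CPM and male 231, and the knockout sets held 139 in tKO male, 116 and 140 in aKO female and male, and 152 and 162 in nKO. Both WT sets were thus above the 5 knockout sets. In thinned nuclei a Calb1 UMI was found in 44.1% of WT, 33.0% of tKO, 30.4% of aKO and 34.4% of nKO granule nuclei, and in 8.56%, 7.53%, 6.82% and 6.21% of other Slc17a7 nuclei.

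Tdo2 and C1ql3 showed the same order of WT and knockouts. The log2 ratio of Tdo2 was -0.69 in tKO, -0.89 in aKO and -0.58 in nKO. C1ql3, a secreted C1q-like synaptic protein, was at 313, 242, 226 and 274 CPM. In the effector list 5 of 12 genes (Ahcyl2, C1ql3, Calb1, Sema5a and Tdo2) had all 5 knockout sets of 1 sex below both WT sets, where 14.0% of all genes did so. Without called nuclei Ahcyl2 did not do so, and 13.8% of all genes did. The sets of 1 library share its preparation and are not replicates. In the other direction, 1 of the 12 effector genes was above WT in tKO, 4 in aKO and 3 in nKO. Gabrd was above WT in each knockout, at the levels given for the marker check. Maml2, a Notch coactivator, was at 933, 861, 1292 and 1005 CPM, highest in aKO and below WT in tKO.

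**Figure D3:**
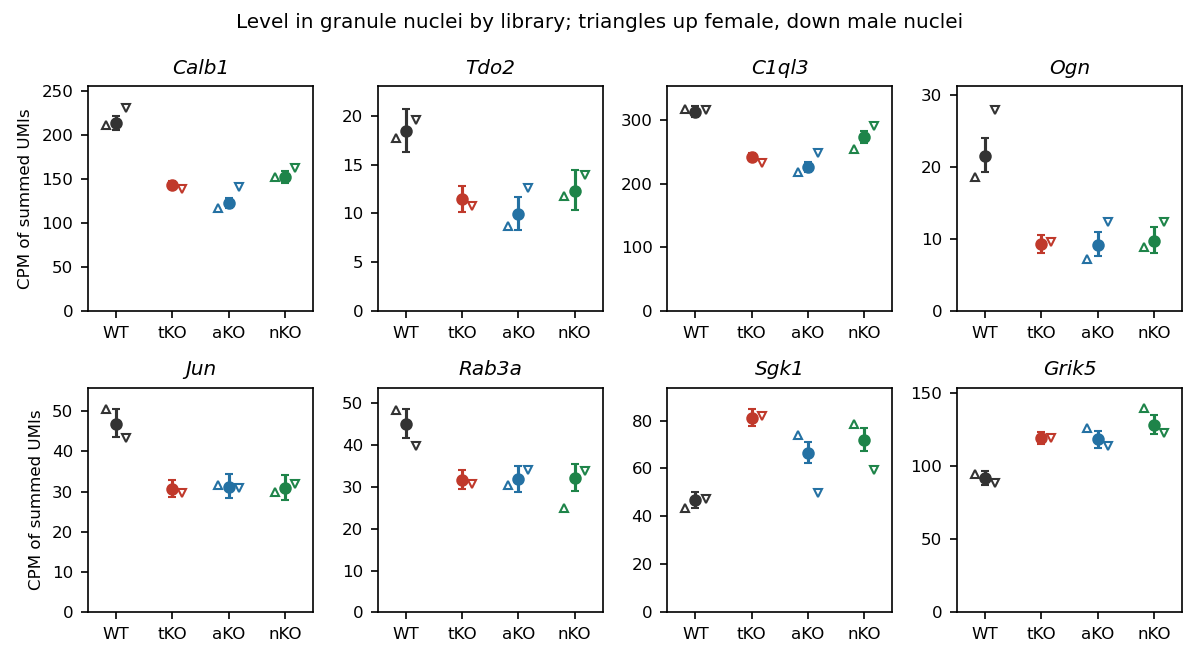
CPM of summed UMIs of 8 genes in granule nuclei of the 4 libraries (circles, bars are exact Poisson intervals), with female nuclei (triangles up) and male nuclei (triangles down) apart. WT is the highest library for Calb1, Tdo2, C1ql3, Ogn, Jun and Rab3a and the lowest for Sgk1 and Grik5.

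Of the 9 granule transcription factors 0 were past 2-fold in any knockout, which is also near the 3.75%, 2.47% and 2.00% of all genes. Medians were -0.17 in tKO, -0.13 in aKO and -0.07 in nKO. Zbtb20, a zinc-finger factor of hippocampal development, was at 5012, 4139, 4704 and 4594 CPM. Neurod1, a factor of granule neuron differentiation, was at 21.0, 18.6, 16.1 and 18.5 CPM. Zbtb20 and Neurod1 were highest in WT.

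Of 27 genes of the mossy fibre synapse, 2 were past 2-fold higher in tKO (Penk and Grm8), 1 in aKO (Penk) and 0 in nKO, and 0 were lower, where 2.50%, 1.21% and 0.506% of all genes were higher. Without called nuclei 0, 1 and 0 were higher, where 0.242%, 0.624% and 0.577% of all genes were, and the log2 ratio of Grm8 in tKO went from 1.11 to 0.38. Medians were 0.13, 0.15 and 0.19, and the same genes had medians of 0.12, 0.061 and 0.088 in other Slc17a7 nuclei. Grik5, a kainate receptor subunit, was at 91.9 CPM in WT (87.2 to 96.9), 120 in tKO (115 to 124), 119 in aKO (113 to 125) and 128 in nKO (122 to 135). Grik4, a second such subunit, was at 264, 310, 350 and 333 CPM. For both WT was the lowest library. It was also the lowest for both in other Slc17a7 nuclei, where Grik5 was at 91.9, 120, 127 and 124 CPM and Grik4 at 294, 319, 463 and 354 CPM. In this list 10 of 27 genes had all 5 knockout sets of 1 sex above both WT sets, where 7.46% of all genes did so. Without called nuclei 6.92% of all genes did so, and the genes of the list are not counted here for that set. Rab3a, a vesicle GTPase, went the other way at 45.0, 31.7, 31.8 and 32.1 CPM. It had nearly the same levels in other Slc17a7 nuclei, 45.3, 32.2, 31.9 and 31.3 CPM. Penk, the enkephalin precursor, was at 5.41, 12.5, 19.0 and 8.82 CPM, and in aKO at 33.3 CPM in female and 7.51 CPM in male nuclei.

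The median ratios of the receptor lists were slightly above 0. Of 14 GABA receptor genes 2 were past 2-fold higher in tKO, 1 in aKO and 0 in nKO, where 2.50%, 1.21% and 0.506% of all genes were. Without called nuclei it was 1, 1 and 0, where 0.242%, 0.624% and 0.577% of all genes were. The list had medians of 0.10, 0.14 and 0.11. Gabra2 was at 722, 942, 839 and 941 CPM, and in other Slc17a7 nuclei at 483, 717, 736 and 652 CPM, lowest in WT in both. Gabra4, the alpha subunit that pairs with delta in granule neurons, was at 359, 323, 324 and 309 CPM, highest in WT. Of 15 glutamate receptor genes 1 was past 2-fold, Grm8 in tKO, where 3.75%, 2.47% and 2.00% of all genes were in the 3 knockouts. Without called nuclei 0 were, where 1.90%, 1.36% and 1.30% of all genes were. Medians of the glutamate receptor genes were 0.11, 0.15 and 0.13. Grin1, the obligatory NMDA receptor subunit, was at 412, 503, 510 and 547 CPM, lowest in WT, and in other Slc17a7 nuclei at 417, 476, 490 and 528 CPM, again lowest in WT. Gabra3, past 2-fold in tKO and aKO, was at 2.60, 13.3, 6.70 and 2.44 CPM in granule nuclei and at 59.1, 77.6, 57.7 and 58.8 CPM in other Slc17a7 nuclei. Its log2 ratio in aKO was 1.34, and 0.78 with Prox1 not required and 0.0041 without glial or vascular nuclei.

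Of 21 endocannabinoid genes 3 were past 2-fold higher in tKO (Chrm3, Cnr1 and Plcb4), 1 in aKO (Chrm3) and 0 in nKO, where 2.50%, 1.21% and 0.506% of all genes were. Without called nuclei it was 0, 0 and 1, where 0.242%, 0.624% and 0.577% of all genes were. Cnr1, which encodes CB1, was at 8.75, 21.6, 15.0 and 8.57 CPM in granule nuclei and 66.2, 74.4, 77.5 and 65.8 CPM in other Slc17a7 nuclei. Its log2 ratio in tKO was 1.30, and -0.36 without called nuclei, a turn of direction. Dagla, the main diacylglycerol lipase of the brain, was at 119 CPM in WT, 125 in tKO, 143 in aKO and 154 in nKO. tKO did not differ from WT beyond counting error, with a log2 interval of -0.02 to 0.15. Dagla levels were 1.60, 1.60, 1.51 and 1.70 times those of other Slc17a7 nuclei in WT, tKO, aKO and nKO. Napepld, an enzyme of N-acylethanolamine synthesis, was at 101, 68.8, 84.1 and 81.7 CPM, highest in WT. Faah, which degrades anandamide, was at 129, 137, 129 and 141 CPM, and Abhd6, a second hydrolase of 2-arachidonoylglycerol, at 122, 111, 120 and 117 CPM.

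**Figure D4:**
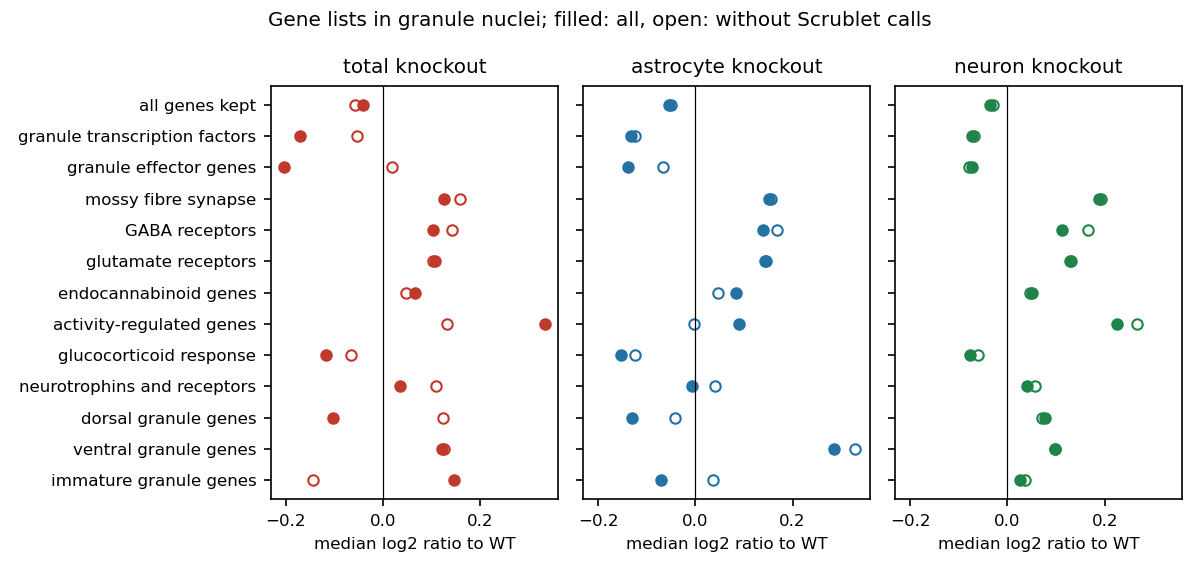
Median log2 ratio to WT over each gene list in granule nuclei of the 3 knockouts, in all granule nuclei (filled) and without nuclei called by Scrublet (open), beside all genes kept. The granule effector median of tKO is -0.20 in the first set and 0.02 in the second.

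Activity-regulated genes had a lower sum in granule than in other Slc17a7 nuclei. It was 533, 632, 588 and 536 CPM in WT, tKO, aKO and nKO, against 1494, 1252, 1148 and 1578 CPM in other Slc17a7 nuclei. Arc, a postsynaptic immediate early gene, was at 2.74, 6.80, 4.81 and 5.63 CPM against 32.5, 24.8, 16.8 and 38.1 CPM. After thinning its log2 ratio in nKO was -0.36, the other direction. Of 27 members 24 reached 100 UMIs. Past 2-fold higher were 5 in tKO, 3 in aKO and 3 in nKO, and 0, 1 and 0 were lower, where 2.50%, 1.21% and 0.506% of all genes were higher and 1.25%, 1.26% and 1.49% lower. Without called nuclei 1, 3 and 3 were higher, where 0.242%, 0.624% and 0.577% of all genes were. The medians of 0.33, 0.09 and 0.22 became 0.13, -0.00 and 0.27 without called nuclei. Jun, a subunit of AP-1, was at 46.9 CPM in WT (43.5 to 50.5), 30.8 in tKO (28.6 to 33.0), 31.2 in aKO (28.3 to 34.3) and 30.9 in nKO (27.8 to 34.2). WT was high and the knockouts overlapped. Jun was higher in granule than in other Slc17a7 nuclei, which held 13.0, 11.1, 9.22 and 8.12 CPM. Bdnf and Inhba of this list were also higher in granule nuclei in all 4 libraries.

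Of 11 glucocorticoid-response genes 9 reached 100 UMIs. Past 2-fold lower were 0 in tKO, 1 in aKO and 1 in nKO, where 1.25%, 1.26% and 1.49% of all genes were. The 1 gene was Tsc22d3, at 4.01, 3.71, 1.60 and 1.43 CPM, and in male nuclei its log2 ratio in aKO was 0.25, the other direction. Sgk1, a kinase induced by corticosteroids, was at 46.7 CPM in WT (43.3 to 50.3), 81.2 in tKO (77.7 to 84.8), 66.4 in aKO (62.2 to 70.8) and 72.1 in nKO (67.3 to 77.1). WT was the low library. Sgk1 levels were 0.361, 0.583, 0.427 and 0.484 times those of other Slc17a7 nuclei in WT, tKO, aKO and nKO. In aKO the male nuclei held 49.9 CPM, close to the 47.4 CPM of WT male nuclei. Without called nuclei the log2 ratios were 0.50, 0.37 and 0.63. Fkbp5, a second responsive gene, was at 123, 91.3, 123 and 106 CPM. Bdnf, a neurotrophin, was at 79.3, 83.4, 84.9 and 91.9 CPM.

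Of 12 genes of immature granule neurons 11 were listed in the files and 7 reached 100 UMIs. Of the 7, 1 was past 2-fold higher in tKO (2.50% of all genes), and 1 lower in aKO (1.26%) and in nKO (1.49%). Gap43 was past 2-fold higher in tKO, at 4.87, 19.7, 9.62 and 5.29 CPM, and its level in other Slc17a7 nuclei was 94.1, 95.2, 77.8 and 78.9 CPM. The log2 ratio of Gap43 in tKO was 2.00, and 0.29 without called nuclei. Igfbpl1, a marker of neuroblasts, was past 2-fold lower in aKO and nKO at 3.07, 2.85, 1.31 and 0.924 CPM. These levels rest on few nuclei. After thinning, 8 granule nuclei in WT, 23 in tKO, 2 in aKO and 1 in nKO held an Igfbpl1 UMI. Fewer immature nuclei and less RNA in each cannot be told apart in these sums. Among the nuclei outside the rule, not thinned, an Igfbpl1 UMI was in 0.831% of WT, 1.85% of tKO, 1.65% of aKO and 2.01% of nKO nuclei. WT was the lowest there. How immature nuclei fell on the 2 sides of the rule was not tested. Dcx, which encodes doublecortin, was at 28.0, 34.3, 24.9 and 28.5 CPM.

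Within libraries, detection of genes listed for the dorsal and the ventral dentate gyrus was compared among granule nuclei. In nuclei thinned to 3000 UMIs, a UMI of a dorsal gene (Gsg1l, Lct, Spata13 or Stra6) was found in 23.1% of WT nuclei with a ventral UMI (Trhr, Grp, Nr2f2 or Cpne7) and in 39.9% of those without. The shares were 27.5% and 41.5% in tKO, 29.9% and 41.2% in aKO, and 28.9% and 40.2% in nKO. The lower share was in nuclei with a ventral UMI in all 4 libraries. Without called nuclei the shares were 22.6% and 40.4% in WT, 28.7% and 44.4% in tKO, 31.5% and 41.8% in aKO, and 29.4% and 40.3% in nKO. The ventral genes summed to 54.0, 85.0, 81.4 and 67.7 CPM in granule nuclei and 204, 245, 314 and 254 CPM in other Slc17a7 nuclei. Most of the latter was Cpne7, which was also among the 6 pyramidal genes of a filter described below. Grp was lower in granule nuclei too, at 0.629, 0.661, 0.852 and 0.787 times other Slc17a7 nuclei. Nr2f2 was at 0.660, 0.569, 0.570 and 0.682 times. Trhr alone was higher in granule nuclei, at 21.1, 20.3, 17.6 and 20.1 CPM against 7.37, 10.8, 8.34 and 6.13 CPM. The dorsal genes summed to 170, 178, 175 and 182 CPM in granule nuclei, against 48.1, 53.9, 45.7 and 48.2 CPM. The part of RNA from other Slc17a7 nuclei in these shares was not tested beyond leaving out called nuclei. Single genes were less uniform. Over the 4 libraries, a ventral gene was found less often in nuclei with a given dorsal gene in 56 of 64 pairs, and a ventral gene more often with another ventral gene in 23 of 24. Dorsal genes did not go together in that way, being found more often with another dorsal gene in 13 of 24 pairs. The pairs share nuclei and genes and are not independent. In nKO, Gsg1l was found in 12.2% of nuclei with Lct and in 16.9% of those without. Nr2f2, a nuclear receptor, was found in 6.94%, 8.47%, 6.49% and 13.1% of nuclei with Trhr and in 2.40%, 3.32%, 2.65% and 2.63% of those without. Trhr is the receptor of thyrotropin-releasing hormone. Cpne7 was at 154, 192, 260 and 209 CPM in other Slc17a7 nuclei and at 6.08, 38.9, 30.2 and 18.9 CPM in granule nuclei.

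**Figure D5:**
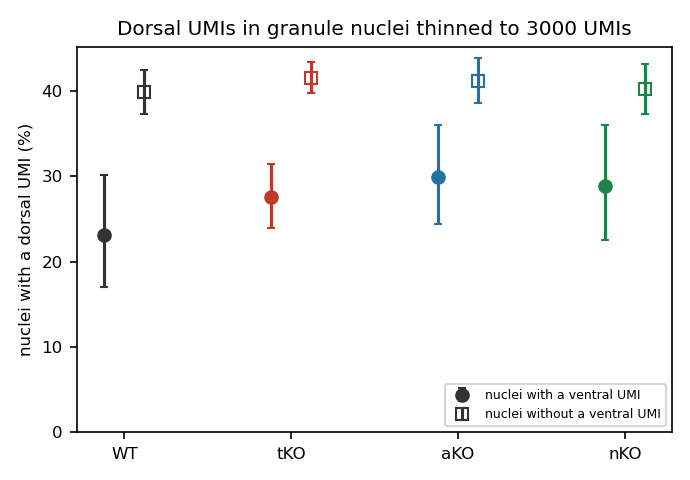
Share of granule nuclei, thinned to 3000 UMIs, with a UMI of a dorsal gene, in nuclei with (filled circles) and without (open squares) a UMI of a ventral gene, with exact Clopper-Pearson intervals. The circles lie between 23.1% and 29.9% and the squares between 39.9% and 41.5%.

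Variation among granule nuclei was read as the Fano factor (variance over mean) of thinned counts, which had a median near 1 over all genes. Of the 15 genes with the highest minimum over libraries, several were lower in granule than in other Slc17a7 nuclei. Dpp10, an auxiliary potassium channel subunit, had Fano factors of 20.7, 16.9, 13.6 and 15.9 and a UMI in 7.44%, 18.7%, 14.9% and 10.2% of nuclei. Others were found in nearly every granule nucleus, such as Lrrtm4, a synaptic adhesion protein, with 3.43, 4.71, 4.13 and 3.402. Without called nuclei 13 of the 15 genes were again among the leading 15. The Fano factors of Dpp10 were then 17.2, 15.1, 7.09 and 15.0, and those of Lrrtm4 3.19, 3.56, 3.47 and 3.22.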

How the data were processed

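The deposited values are whole-number UMI counts, with no normalization, made with Cell Ranger ARC 2.0.0 and mm10 per the submitters' processing notes. Strand use is not stated in the labels. Libraries were joined on 20211 shared symbols. The deposited total was 89884297 UMIs in WT, 193307038 in tKO, 89875862 in aKO and 81623644 in nKO. UMIs of granule nuclei were summed per library and given as CPM, and genes needed at least 100 UMIs over 4 libraries. No test was run, since each genotype has 1 library. Doublets were called with Scrublet (scanpy 1.11.5, expected rate 0.8% per 1000 barcodes) but kept in the main values, as the rule has no doublet step. The members and gene lists were chosen with earlier results of these data known. The sexes were set by Xist and 4 Y-linked genes. Named genes were Mgll, list members, the 20 leading genes, the 8 highest and 8 lowest per knockout by the interval bound nearest 0 (among genes at least as high as in all other nuclei), genes past 2-fold in all 3 knockouts and 15 variable genes. Other genes named were chosen after their values were seen. The ratios were checked on simulated counts. 10 alternatives were planned and 2 were added after seeing the data, as were the dorsal shares without Scrublet calls. Columns of no known sample numbered 0. Analysis used Python 3.11.15, numpy 2.4.6, scipy 1.17.1 and pandas 2.3.3. Some results are not reported here.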

Additional observations from a re-analysis of the deposited data

How the results depend on the processing

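No paired analysis was possible because the labels carry no replicate numbers and each genotype has 1 library. Depth limits low genes, and with 1 library per genotype no setting measures the spread between animals. 10 alternatives were planned. Leaving out nuclei with at least 2 UMIs of 6 pyramidal genes, and leaving out Scrublet calls together with female nuclei, were chosen after seeing the data, as were the dorsal shares without Scrublet calls, and the 6 genes were picked from genes seen higher in the knockouts. In the sentences below the cause of each change was not tested. Without Scrublet calls the granule shares were 11.8% in tKO and 15.1% in aKO, and the genes past 2-fold numbered 244 in tKO, 174 in aKO and 166 in nKO of 12818 genes kept, against 511, 337 and 272 of 13633. With at least 4 markers the shares were 15.3%, 8.74%, 12.4% and 12.8% in WT, tKO, aKO and nKO, and with Prox1 not required 20.3%, 15.6%, 19.0% and 18.03%. After thinning they were 11.1%, 9.07%, 10.1% and 9.75%, with 199, 155 and 175 of 9961 genes past 2-fold. Without nuclei holding glial or vascular UMIs they were 6.90%, 8.02%, 7.12% and 6.42%, which reversed the order of WT and tKO, with 246 of 10021 genes past 2-fold in tKO and 203 in aKO. That setting kept 329, 1530, 487 and 349 granule nuclei, and its cut was not scaled to depth. Without nuclei holding pyramidal UMIs 273, 194 and 161 of 12517 genes passed 2-fold, without calls and female nuclei 125, 147 and 121 of 10907, and with at least 20 UMIs per gene 1282, 1091 and 1050 of 17228. The settings keep different numbers of genes, so these counts are not over 1 set. The log2 ratio of Mgll after thinning was -0.47 in tKO and 0.046 in aKO, in male nuclei -0.43 in tKO and -0.035 in nKO, and in male nuclei without calls -0.051 in nKO. The limit of 5% mitochondrial UMIs removed 0 granule nuclei and some of the other nuclei.

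Only named and listed genes were followed over the settings, and among their log2 ratios that had passed 2-fold, 30 values of 16 genes changed direction. Ratios short of 2-fold, such as Mgll in nKO, also changed sign and are not listed. Without Scrublet calls these were Ankub1 in tKO (-0.28) and Cnr1 in tKO (-0.36). After thinning they were C1qc in aKO (0.041), Gm19667 in aKO (0.26) and Arc in nKO (-0.36). In male nuclei they were C1qa in tKO (0.19), C1qb (0.075), C1qc (0.17), Gm50209 (0.17), Tmc6 (-0.087) and Tsc22d3 (0.25) in aKO, and Npas4 in nKO (-0.40). Without glial or vascular UMIs they were Ankub1 in tKO (-0.33), C1qa (0.30), C1qb (0.71), Ctss (0.71), Egr4 (0.30) and Tsc22d3 (0.71) in aKO, and Ctss (0.027), Inpp5d (1.03) and Siglech (0.027) in nKO. Without pyramidal UMIs they were Cnr1 (-0.34) and Npas4 (-0.12) in tKO. In male nuclei without calls they were Cnr1 in tKO (-0.13), C1qb (0.046), C1qc (0.34), Gm50209 (0.34), Efemp1 (-0.15) and Tsc22d3 (0.24) in aKO, and Npas4 in nKO (-0.35).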

Other observations

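Genes outside the lists that were highest by the interval bound nearest 0 included Mro, Mapk4 and Pstpip2 on chromosome 18, of which Mro and Mapk4 are near each other. Mro was at 6.74 CPM in WT, 14.0 in tKO, 12.1 in aKO and 15.6 in nKO (chr18:73859385-73881333). Mapk4, an atypical MAP kinase, was at 101, 170, 179 and 156 CPM (chr18:73928486-74065359). Pstpip2, an actin-associated protein, was at 15.3, 29.0, 23.5 and 32.3 CPM (chr18:77789914-77882879). For Mro, Mapk4 and Pstpip2 WT was the lowest library. Their shared chromosome was noticed after the values were seen. The share of all genes on it was not counted, so no pattern is read from it. Its part in the difference was not tested.

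Ubb, a ubiquitin gene, was at 126, 61.3, 84.2 and 81.8 CPM, and Tmsb4x, which encodes thymosin beta 4, was at 238, 168, 131 and 96.7 CPM. Both were highest in WT. Slc24a5, an exchanger gene, was low in tKO alone among the 4 libraries, at 24.8, 11.0, 30.9 and 35.1 CPM. Batf3, a leucine zipper factor, was at 0.801 CPM in WT, 1.21 in tKO, 3.86 in aKO and 0.840 in nKO, with aKO the highest library.

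Oligodendrocyte markers summed to 602, 721, 474 and 454 CPM in granule nuclei of WT, tKO, aKO and nKO, against 151, 217, 117 and 130 CPM in other Slc17a7 nuclei. Granule nuclei were the higher set in all 4 libraries. In granule nuclei not called by Scrublet the sums were 615, 388, 531 and 469 CPM, with tKO then the lowest library and not the highest. Astrocyte markers summed to 213, 230, 205 and 206 CPM against 355, 313, 264 and 319 CPM, the other way.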
